A study of Mus musculus with 2 samples.

Results

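The genes described here are 44 genes of DNA replication, chosen by name for their function, out of 21536 protein-coding genes with a known strand. They comprise 9 genes of origin recognition and licensing, 2 of the kinase that fires origins, 13 of the replicative helicase and its relatives, 9 of the polymerases and primase, 6 of the sliding clamp and its loader, 3 of the single-strand binding protein, and 2 that finish Okazaki fragments. The data are ELF1 ChIP-seq peak lists from CH12.LX cells, an immortalized mouse line (strain B10.H-2aH-4bp/Wts, female) that arose as a B-cell lymphoma, grown in culture with no treatment named in the labels. There was 1 group of 2 biological replicates, both of this 1 line, and no second condition. The lists hold no expression. Of 6 B cell marker genes 6 had an ELF1 summit within 1 kb of the 5′ end, and of 10 T cell, erythroid and hepatocyte markers 0 had one (upper exact limit 30.8%).

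ELF1 is an ETS transcription factor, one of a family that reads GGAA in DNA, and it is expressed in lymphoid cells. Replication begins where the origin recognition complex sits on DNA and, with Cdc6 and Cdt1, loads the ring of MCM proteins. The kinase Cdc7 with its partner Dbf4, and then Cdc45 and the GINS complex, turn that ring into the working helicase. Polymerase alpha with primase starts each strand, the RFC complex loads the PCNA clamp, and polymerases delta and epsilon extend the DNA. Many of these genes are textbook targets of E2F factors, which switch them on before S phase.

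Nearly all of these genes carried ELF1 at the promoter. A gene was called bound when the summit of an optimal mm10 peak lay within 1 kb of its start, the start being the 5′ end of the RefSeq gene. By that rule 39 of 44 genes were bound (88.6%, 95% exact interval 75.4% to 96.2%), against 39.1% of all protein-coding genes. The 5 others were Orc1, Orc4, Rfc1, Lig1 and Pole. With every start in the RefSeq promoter table added, 43 of 44 were bound (97.7%, 88.0% to 99.9%), against 42.3% of all protein-coding genes, and Pole alone was not. With the mm9 list and all GENCODE M1 transcript starts, 41 of 44 were bound (93.2%, 81.3% to 98.6%), against 36.9% of all protein-coding genes there. The conservative mm10 list gave 40 of 44, against 38.5%. The 29086 strongest entries of replicate 1 alone gave 40 of 44, against 39.5%, those of replicate 2 alone 40, against 39.8%, and those of the pooled list 40, against 39.8%. In the optimal list, 37 genes had a summit within 500 bp, against 35.9% of all genes, and 41 within 2 kb, against 42%. A peak interval that reached into the 1 kb around the start was present at 39, against 39.7%, and 38 had a summit among the stronger 50% of optimal peaks, against 31.5%. Across 6 combinations of list and starts, which were the optimal list with either start set, the conservative list, the mm9 list and each replicate, 37 genes were bound in every one. The share of all protein-coding genes bound in every one was not counted, so this number has no background beside it. Intervals cover counting error only, and no test is given for the list.

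**Figure D1:**
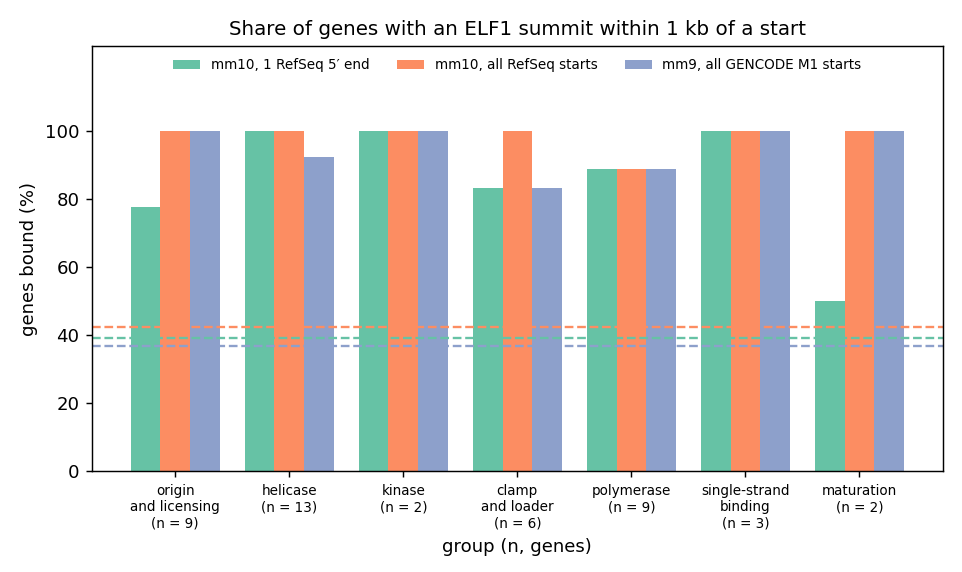
Share of genes bound (%) in each of the 7 functional groups, with the number of genes under each name; bars show the 3 combinations of peak list and start sites, and dashed lines the share of all protein-coding genes in the same colour (39.1%, 42.3% and 36.9%). In the maturation group, of 2 genes, the share was 50% with 1 5′ end per gene and 100% otherwise.

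Most genes of every group with more than 2 members were bound, and the groups are too small for their shares to be ranked. All 13 helicase genes, both kinase genes and all 3 single-strand binding genes were bound at the RefSeq 5′ end. The polymerase group had 8 of 9 bound, the clamp group 5 of 6, the origin group 7 of 9 and the maturation group 1 of 2. With all RefSeq starts the origin group reached 9 of 9, the clamp group 6 of 6 and the maturation group 2 of 2, while the polymerase group stayed at 8 of 9. With the mm9 list the helicase group had 12 of 13, since Mcm4 had no peak there, and the clamp group 5 of 6, since Pcna had none.

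Peak signal varied widely within and between groups, and the differences between groups were not tested. The signal is the peak caller's own value, on a scale that is not given and that differs between lists. The 39 bound genes had a median signal of 149 (range 36.4 to 502), against 97.1 for all 8412 bound protein-coding genes. Of the 39, 16 (41%) lay in the strongest decile of the optimal list, against 29.8% of all bound genes, and 1, Gins1, lay in its weaker 50%, against 19.4%. Median signal was 307 for the 3 single-strand binding genes, 304 for the 5 bound clamp genes, 208 for the 13 helicase genes, 115 for the 8 bound polymerase genes, 93.5 for the 7 bound origin genes and 74.7 for the 2 kinase genes. The place of the origin group depended on the starts used: with Orc1 and Orc4 counted at their table starts its median was 156, and the clamp median with Rfc1 was 219. Ranges overlapped between most groups, from 47.6 to 416 for origin, 36.4 to 502 for helicase and 44.6 to 215 for polymerase genes. No polymerase gene exceeded 215, while 5 helicase genes, 3 clamp genes, 2 single-strand binding genes and, at the 5′ end, the origin genes Cdc6 and Orc3 did.

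**Figure D2:**
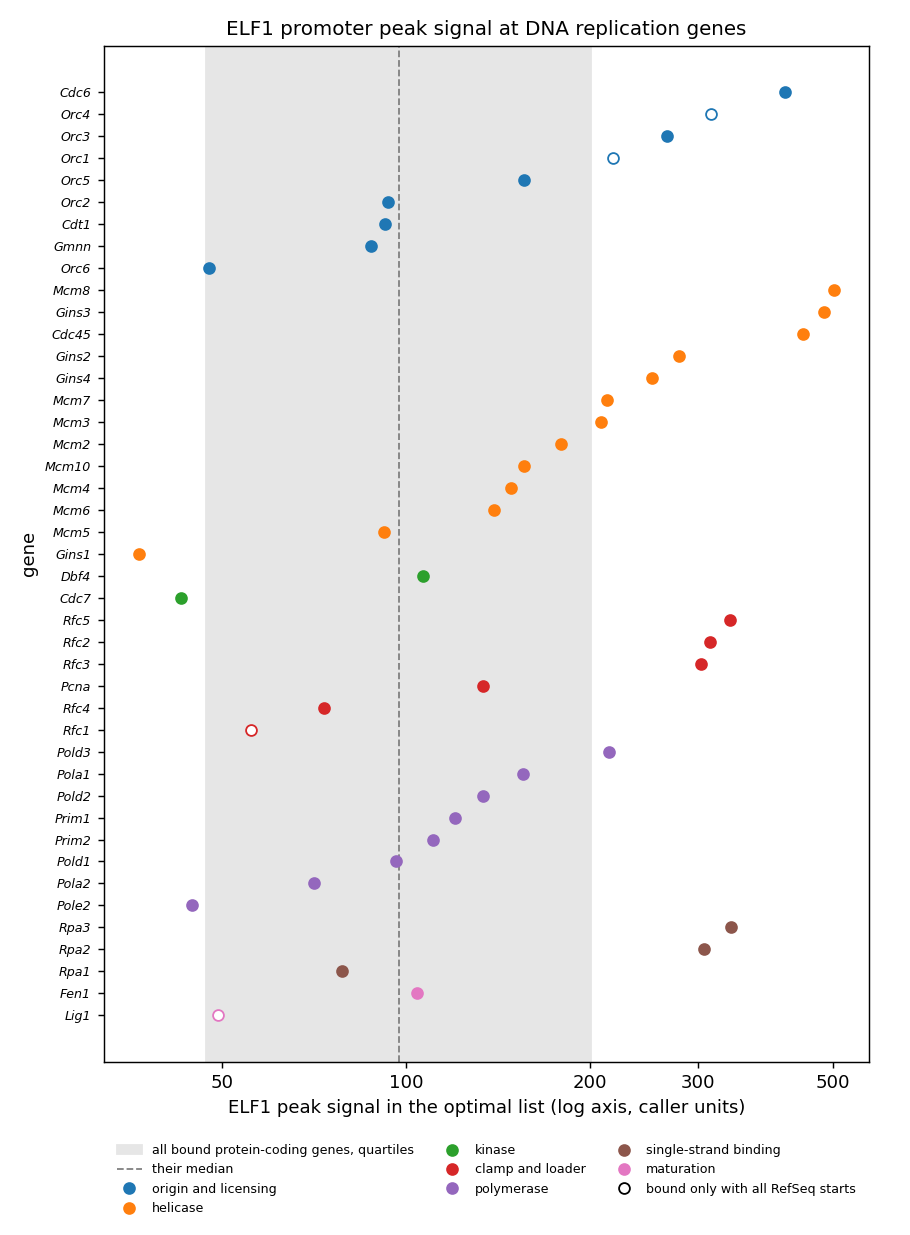
ELF1 signal of the promoter peak in the optimal list (log axis, caller units) for the 43 genes with a peak at any RefSeq start, by group; open circles are the 4 genes bound only with all RefSeq starts. The grey band spans the quartiles of all bound protein-coding genes, 47.0 to 201, and the dashed line their median of 97.1. Mcm8 at 502 and Gins1 at 36.4, both of the helicase group, are the highest and lowest points.

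The sequences under the summits show how the stronger and weaker peaks of the list look. Each is the stretch of up to 40 bases to each side of the optimal summit, cut at the start site, 5′ to 3′ on the gene's strand, from the RefSeq promoter table of GRCm38.p6. Capitals mark CGGAAG or its complement CTTCCG, a 6-letter ETS core. The first 11 hold the core and the last 4, shown for contrast, do not. GGAA with other flanking bases is not marked, and each of these 4 holds it on at least 1 strand. At Prim1 a CGGAAG lies 48.5 bp from the summit, outside the printed bases. All 15 sequences were chosen after their values were seen. In mm10, those on the plus strand are Orc1 (chr4:108579215-108579295), Mcm8 (chr2:132816037-132816117), Gins3 (chr8:95633383-95633463), Prim1 (chr10:128015078-128015158) and Mcm5 (chr8:75109407-75109487). Those on the minus strand are Orc4 (chr2:48949365-48949445), Orc5 (chr5:22550352-22550432), Mcm10 (chr2:5012851-5012931), Cdc45 (chr16:18811990-18812070), Rfc3 (chr5:151651209-151651288), Rfc4 (chr16:23127741-23127821), Rfc5 (chr5:117389024-117389104), Rpa3 (chr6:8259276-8259356), Pold2 (chr11:5878292-5878372) and Mcm3 (chr1:20820403-20820483).
Orc1: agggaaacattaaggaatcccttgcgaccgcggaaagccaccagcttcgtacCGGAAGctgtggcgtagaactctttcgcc
Orc4: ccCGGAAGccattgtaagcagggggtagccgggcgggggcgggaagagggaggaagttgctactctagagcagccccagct
Orc5: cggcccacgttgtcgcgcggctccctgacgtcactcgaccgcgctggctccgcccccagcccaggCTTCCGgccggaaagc
Mcm8: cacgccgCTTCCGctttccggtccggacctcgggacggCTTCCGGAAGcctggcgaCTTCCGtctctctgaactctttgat
Mcm10: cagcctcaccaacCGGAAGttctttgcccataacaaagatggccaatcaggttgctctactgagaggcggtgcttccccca
Cdc45: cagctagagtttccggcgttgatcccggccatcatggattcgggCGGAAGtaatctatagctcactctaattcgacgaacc
Gins3: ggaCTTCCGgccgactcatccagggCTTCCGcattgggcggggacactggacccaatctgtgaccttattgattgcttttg
Rfc3: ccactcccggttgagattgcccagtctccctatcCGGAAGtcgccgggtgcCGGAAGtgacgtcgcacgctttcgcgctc
Rfc4: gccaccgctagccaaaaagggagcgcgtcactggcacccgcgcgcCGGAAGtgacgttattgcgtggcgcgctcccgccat
Rfc5: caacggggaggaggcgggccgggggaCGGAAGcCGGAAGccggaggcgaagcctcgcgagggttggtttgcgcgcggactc
Rpa3: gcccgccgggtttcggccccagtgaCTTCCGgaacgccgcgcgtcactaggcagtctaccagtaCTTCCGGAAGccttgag
Pold2: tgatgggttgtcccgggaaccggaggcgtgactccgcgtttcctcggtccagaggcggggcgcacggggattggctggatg
Prim1: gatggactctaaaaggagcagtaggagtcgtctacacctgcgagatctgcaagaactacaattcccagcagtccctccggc
Mcm3: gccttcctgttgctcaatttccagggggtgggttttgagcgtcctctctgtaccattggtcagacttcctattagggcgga
Mcm5: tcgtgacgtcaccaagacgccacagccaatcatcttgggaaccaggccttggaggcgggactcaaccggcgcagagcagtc

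Among the origin genes, the strongest peak lay at Cdc6, which loads the helicase ring with Cdt1. It spanned chromosome 11 from 98907407 to 98907757 in mm10, with the summit 120 bp upstream of the 5′ end and a signal of 416. Its signal was 190 in replicate 1 and 225 in replicate 2, where it ranked 372 and 324. Orc3, a core subunit of the origin recognition complex, had 267, with 124 and 140 in the replicates, and its peak also lay at the start of Rars2. Orc5 had 156 (72.2 and 85.0), Orc2 93.5 (45.6 and 49.2), Cdt1 92.2 (42.3 and 50.7) and Gmnn 87.5 (52.1 and 36.3). Cdc6 and Orc3 thus stood above the other origin genes bound at the 5′ end in both replicates. Gmnn, which encodes the Cdt1 inhibitor geminin, was the origin gene with the lower value in replicate 2. Orc6 had the weakest peak of the group, 47.6 (21.3 and 25.9), with the summit 901 bp upstream of its start and within 1 kb of the start of Vps35.

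The subunits Orc1 and Orc4 were unbound at the RefSeq 5′ end but had strong peaks at other starts of the same genes. For Orc1, the ATPase subunit, the 5′ end is at 108575705 on chromosome 4, and the start in the promoter table is 3749 bp downstream at 108579454. The summit lay 199 bp upstream of that start, with a signal of 218 and with 97.5 in replicate 1 and 120 in replicate 2. Prpf38a has a start within 1 kb of this summit. For Orc4, on chromosome 2, the nearest of 3 further starts was 48949267, and the summit lay 138 bp upstream of it, with a signal of 315 and with 134 and 184 in the replicates. A start of Mbd5 is equally within 1 kb. Both genes were bound in the mm9 list too, with signals of 318 and 502 on that list's scale.

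The kinase genes had weak to middling peaks. Dbf4, the regulatory subunit, had a signal of 106, with 49.97 in replicate 1 and 55.4 in replicate 2, and its peak was shared with Slc25a40. Cdc7, the catalytic subunit, had 42.8, with 13.8 and 30.04 in the replicates. Cdc7 ranked 19056 in replicate 1 and 11457 in replicate 2, the lowest place in replicate 1 among the 38 bound genes with an entry in both replicates.

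The helicase group held the strongest peaks of the list. Mcm8, an MCM relative that works in homologous recombination, had the highest signal, 502, with 229 in replicate 1 and 273 in replicate 2. Its peak spanned chromosome 2 from 132815914 to 132816253 across the Mcm8 start at 132816137, with the summit upstream of it and within 1 kb of a start of Trmt6. The 6-letter core occurs 4 times in the sequence printed for it. Gins3, a subunit of the GINS complex, had 483 (226 and 259), on chromosome 8 from 95633261 to 95633577. Cdc45, which joins GINS on the helicase, had 447 (212 and 228), on chromosome 16 from 18811839 to 18812179, a peak shared with Ufd1. In each replicate all of these 3 peaks ranked within the first 287 of 300000 entries. Gins2 had 280 (134 and 144) and Gins4 253 (114 and 139), so 4 of the 5 genes of Cdc45 and GINS lay in the strongest decile of the list. Gins1 did not: its peak had a signal of 36.4, an entry of 22.4 in replicate 2, and no entry within 100 bp in replicate 1, where the nearest one, of 22.4, had its summit 260 bp downstream of the start against 156 bp in the optimal list.

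The ring subunits Mcm2 to Mcm7 had a median of 164, below the 280 of Cdc45 and GINS. Mcm7 had 213, with 77.1 in replicate 1 and 133 in replicate 2. Mcm3 had 208 (97.1 and 109), Mcm2 179 (81.7 and 96.5), Mcm4 149 (96.2 and 51.2) and Mcm6 139 (68.4 and 71.1). Mcm5 had the weakest, 91.8 (42.2 and 47.5). These 6 genes encode 1 hexamer, and their signals spanned 91.8 to 213. Mcm10, which helps to start the helicase, had 156 (82.7 and 73.2). The peak of Mcm4 also lay at Prkdc, the divergent neighbour that encodes the DNA-dependent protein kinase, and that of Mcm7 at Ap4m1. The Mcm4 peak ranked 2095 in replicate 1 and 6427 in replicate 2.

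The polymerase genes had peaks of middling signal. Pold3, an accessory subunit of polymerase delta, led with 215, with 98.7 in replicate 1 and 118 in replicate 2. Pola1, the catalytic subunit of polymerase alpha, had 155 (69.9 and 86.3), Pold2 of polymerase delta 133 (61.7 and 71.8), and the primase subunit genes Prim1 and Prim2 120 (43.2 and 72.4) and 110 (48.4 and 63.6). Pold1, the catalytic subunit of polymerase delta, had 96.3 and Pola2 of polymerase alpha 70.7. Pole2, an accessory subunit of polymerase epsilon, had the weakest, 44.6 (19.8 and 25.6), with the summit 266 bp downstream of the start and a peak shared with Klhdc1. Pole, the catalytic subunit of polymerase epsilon, had no peak by the rule. The other epsilon subunit genes, which belong to the wider list described last, were not alike: Pole4 had 299 (144 and 157), above every gene of the polymerase group, and Pole3 had 99.995 (47.9 and 60.2). They are named here after their values were seen.

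Pole was at the margin of detection. The nearest optimal summit lay 1392 bp upstream of its 5′ end, with a signal of 7.07. The conservative list, by contrast, held a summit 106 bp downstream of the start with a signal of 26.4. Replicate 1 had an entry 161 bp downstream with a signal of 10.9 (rank 25610), and replicate 2 an entry 97 bp downstream with 13.9 (rank 27029) and one 830 bp downstream with 15.6. The mm9 list had none within 1 kb of any start. These values were below the lowest found in the same lists at the 39 bound genes.

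The clamp loader genes split into strong and weak peaks. Rfc5 had 339, with 145 in replicate 1 and 193 in replicate 2, Rfc2 had 315 (143 and 172) and Rfc3 304 (133 and 171). The Rfc3 peak, on chromosome 5 from 151651137 to 151651367, has 2 copies of the 8-letter word CCGGAAGT in the sequence printed for it. Rfc4 had 73.4 (22.9 and 44.8), although its sequence also holds that word. Pcna, which encodes the clamp itself, had 133 (68.8 and 65.9), with the summit 411 bp downstream of the start, and a second, weaker summit 212 bp upstream with 54.4. Rfc1, the large loader subunit, had no peak at its 5′ end and one of 55.7 at the table start 2978 bp downstream, with 38.1 in replicate 2 and no entry within 100 bp in replicate 1, whose nearest entry, 27 bp upstream of that start against 129 bp in the optimal list, had a signal of 23.5.

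Of the single-strand binding genes, which encode the subunits of RPA, Rpa3 had 340 (149 and 190) and Rpa2 307 (135 and 173). Rpa1, the large subunit, had 78.4 (30.04 and 49.4). Rpa1 was therefore lower than Rpa2 and Rpa3 in both replicates. The peaks of Rpa1 and Rpa3 were shared with Smyd4 and Umad1. In the maturation group, Fen1, the flap nuclease gene, had 104 (45.6 and 60.1), shared with Tmem258. Lig1, the ligase gene, had a peak of 49.1 at the table start 1651 bp downstream of the 5′ end, with the summit 337 bp upstream of that start, 33.9 in replicate 2 and no entry within 100 bp in replicate 1, whose nearest one had 16.9. Zswim9 has a start within 1 kb of it.

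Both replicates had entries at nearly all of these sites. The optimal list was made from the relaxed lists, so entries in both are no independent check. Each replicate was looked up in its own relaxed list. Of the 39 bound genes 38 (97.4%) had a summit within 100 bp in both relaxed lists, against 93.5% of all bound genes. All 38 ranked among the 29086 strongest entries of each. The share of all bound genes that did so was not counted, so this rank count has no background beside it. Signals ran from 13.8 to 229 in replicate 1 and from 25.6 to 273 in replicate 2, with a Spearman correlation of 0.943 over the 38 genes, points that share the same 2 libraries. The ratio of replicate 2 to replicate 1 had a median of 1.20, against 1.28 for all bound genes, and it ran from 0.533 at Mcm4 to 2.18 at Cdc7. The scales of both lists are their own, so a ratio other than 1 is no change. Only Mcm4, Gmnn, Mcm10 and Pcna had the lower number in replicate 2.

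**Figure D3:**
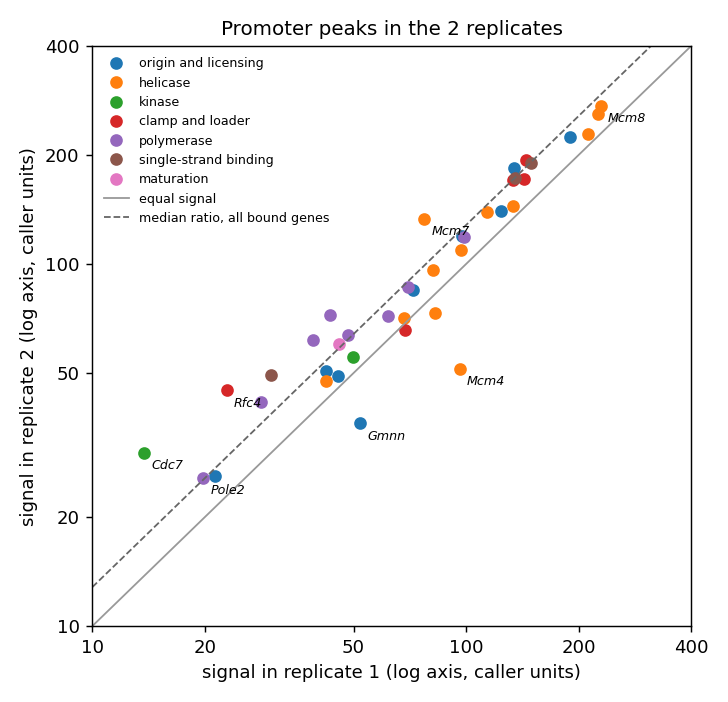
Signal of each gene's promoter peak in replicate 1 and replicate 2 (both axes log, caller units), coloured by group, for genes with an entry within 100 bp of the optimal summit in both lists; the solid line marks equal signal and the dashed line the median ratio of all bound protein-coding genes, 1.28. Mcm4 (96.2 and 51.2) and Gmnn (52.1 and 36.3) lie below the solid line, and Cdc7 (13.8 and 30.04) lies above the dashed one.

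Most summits lay upstream of the start, and most within 100 bp of it, but not in every group. Measured from the nearest RefSeq start, the 43 bound genes had a median offset of 54 bp upstream (an offset of -54), against -21 for all bound protein-coding genes. Of the 43, 31 (72.1%) had the summit upstream, against 61.9%, and 26 (60.5%) lay within 100 bp, against 59.9%. Median offsets were -88 for origin, -60 for helicase, -40.5 for clamp, -35 for polymerase and -175 for single-strand binding genes, and 47.5 for the 2 kinase genes, both of which had the summit downstream. The 2 maturation genes had a median of -74, from -337 at Lig1 and 189 at Fen1, neither within 100 bp. Summits farther than 250 bp from every RefSeq start belonged to Orc6 (-901), Mcm4 (-383), Lig1 (-337), Pole2 (251), Pcna (411) and Cdt1 (422). Mcm7, whose summit lay 829 bp downstream of the 5′ end, had it 16 bp upstream of a further start. Of the genes by the 5′ end rule, Orc6 at 901 bp and Mcm7 at 829 bp were the nearest to the 1 kb limit from inside, and Lig1 at 1314 bp and Pole at 1392 bp from outside. In the mm9 list, by GENCODE M1, 28 of 41 summits lay upstream of the gene's transcripts, 8 in a noncoding exon, which is a 5′ untranslated exon or part of a noncoding transcript, and 5 in an intron. These places were not counted over all bound genes, so they describe the 41 summits only.

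**Figure D4:**
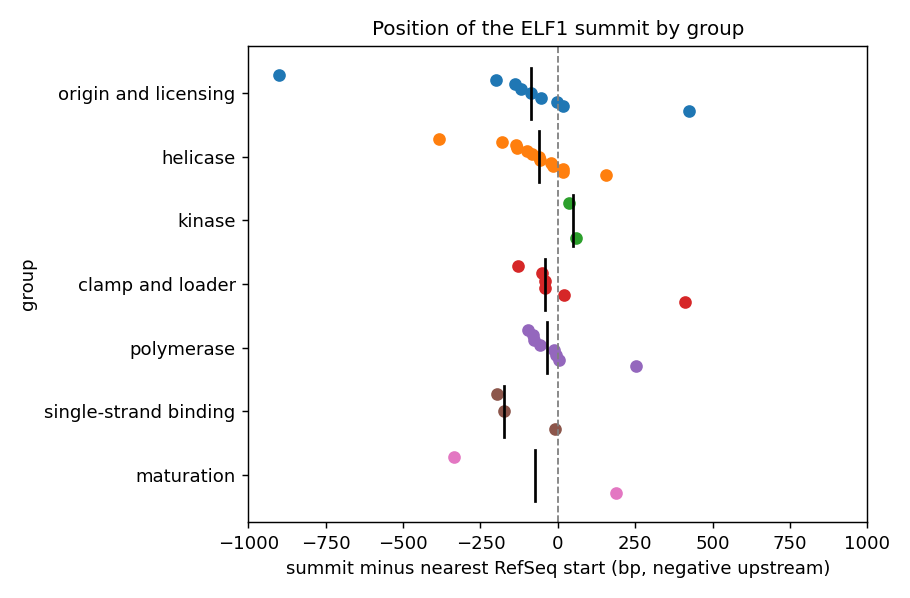
Distance of the optimal summit from the nearest RefSeq start (bp, negative values upstream) for the 43 bound genes in 7 groups; each point is a gene, black bars are group medians and the dashed line is the start. Orc6 at -901 is the point farthest from its start.

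Several of these peaks belong to more than 1 gene. Of the 39 bound genes 12 (30.8%) had a summit within 1 kb of the start of another protein-coding gene, against 24.5% of all bound genes. The neighbour not yet named was Cds2, at Pcna. For the other 27 genes no other protein-coding start lay so near. A second optimal summit within 1 kb was present at 9 genes (23.1%), against 23.8% of all bound genes.

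The promoters shared words beyond the ETS core. The RefSeq promoter table, which gives 250 bases before and 50 after a start, matched 36 of the 44 genes; Gmnn, Mcm4, Gins1, Gins2, Gins4, Prim2, Pole and Rfc2 were not matched. With 1 promoter per gene, that of the start nearest the gene's 5′ end, and both strands searched, CGGAAG occurred in 19 of 36 promoters (52.8%), against 39.3% of bound and 21.5% of all protein-coding genes. The longer CCGGAAGT, which contains it, occurred in 8 (22.2%), against 11% and 5.28%. Any of 4 E2F words, TTTCCCGC, TTTCGCGC, TTTGCCGC or TTTGGCGC, occurred in 15 (41.7%), against 4.73% of bound and 2.94% of all protein-coding genes. The complement of TTTCCCGC contains GGAA, and no E2F word contains CGGAAG on either strand. CCAAT, the box read by NF-Y, occurred in 22 (61.1%), against 40.2% and 39.2%, and GGGCGG, the GC box, in 27 (75%), against 66.1% and 46.3%. All 9 matched helicase promoters held CCAAT, 6 an E2F word and 7 CGGAAG. In the polymerase group 4 of 7 promoters held an E2F word, in the origin group 4 of 8, and in the clamp group 1 of 5, at Rfc3. None of the 3 single-strand binding, 2 kinase and 2 maturation promoters held one. In the wider list of 37 replication genes, of which 29 matched the table, 6 promoters (20.7%) held an E2F word. For Orc4, Mcm7 and Lig1 the promoter so chosen is not that of the start nearest the summit. With the promoter nearest the summit taken for every bound gene, CGGAAG occurred in 21 of 36 (58.3%), Orc4 and Mcm7 included, against 41.1% of bound genes, and an E2F word in 15 (41.7%), against 4.69%. With that choice Mcm7 no longer held an E2F word and Lig1 did. Median GC content was 61.8% against 61.0% for bound and 56.3% for all genes, and the median ratio of observed to expected CpG was 0.889, against 0.798 and 0.577.

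**Figure D5:**
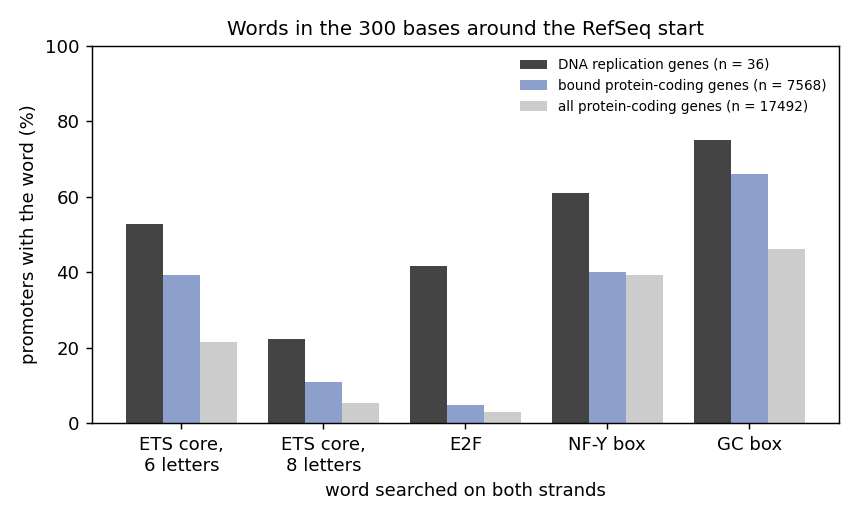
Share of promoters (%) that hold each word on either strand from 250 bases before to 50 after the RefSeq start, for 36 DNA replication genes, 7568 bound and 17492 protein-coding genes in all. The E2F words show the widest gap, 41.7% against 4.73% and 2.94%.

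ETS cores lay nearer to the summits than E2F words did, and so they did over all bound genes, at much the same distances. Where the summit fell in the promoter window, the nearest CGGAAG was a median of 14.5 bp away at 19 genes, against 15.5 bp over all bound genes. The nearest E2F word was a median of 83.5 bp away at 11 genes, against a median of 81.5 bp over all bound genes. At these 11 genes it was never nearer than 33.5 bp. Over all bound genes 33 of 257 (12.8%) had one within 20 bp, a background at which none of 11 is no result about these genes. In the mm9 list, whose build has a genome sequence here, 27 of 41 peaks (65.9%) held CGGAAG within 50 bp of the summit, against 46.2% of all 7271 promoter peaks, and 8 (19.5%) held CCGGAAGT, against 13.1%. These 8 were at Orc3, Mcm10, Gins3, Gins4, Rfc3, Rfc4, Pold3 and Rpa3. Within 25 bp, 4 held CCGGAAGT (9.76%), near the 9.2% of promoter peaks. Of the stronger 21 of the 41 peaks, 18 (85.7%) held CGGAAG, against 72.1% of promoter peaks of at least the same signal, and of the weaker 20, 9 (45.0%), against 31.2%. An E2F word lay within 25 bp of 0 of 41 summits (upper exact limit 8.60%), against 0.646% of promoter peaks, a background at which none is no result about these genes. Within 50 bp there were 2 (4.88%), at Orc3 and Rfc3, against 1.6%, and within 100 bp 8 (19.5%), against 3.04%. A word match describes these letters and is not a measured site.

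For Mcm4 and Pcna the calls differed between the builds, and for Gins1 the peak that was counted differed. Mcm4 and Pcna had mm10 signals of 149 and 133 and no mm9 peak within 1 kb of a GENCODE start. Of 2842 genes named alike in both annotations with an optimal signal of at least 133, 201 (7.07%) had no mm9 peak, and the cause was not tested. Gins1 had a strong mm9 peak, of 861 on that list's scale, 551 bp upstream of a GENCODE start. In mm10 a peak of 423 lay 4703 bp upstream of its RefSeq 5′ end, within 1 kb of the start of Abhd12, and so was not counted for Gins1. The mm9 list was read with GENCODE starts and the mm10 list with RefSeq starts, so the mm9 call may rest on this same peak. Positions were not converted between the builds.

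Other genes of replication, 37 from a separate list of accessory factors, checkpoint mediators, cyclins and nucleotide synthesis, were bound about as often. Of these, 33 (89.2%) had a peak at the 5′ end, against 39.1% of all protein-coding genes, and 34 (91.9%) with all RefSeq starts, against 42.3%. Their median signal was 107, against 97.1 for all bound genes. The strongest was at Wdhd1, a replisome scaffold, with 549 (274 and 279 in the replicates), a peak shared with Socs4. Topbp1, which acts in origin firing and checkpoint signalling, had 360 (175 and 186), Rrm1 of ribonucleotide reductase 323 (134 and 193), and Mcm9, the partner of Mcm8, 308 (154 and 153). In the optimal list Rnaseh2a was bound only with all RefSeq starts. It was also bound in the mm9 list and, at its 5′ end, among the strongest entries of each replicate alone. Timeless, Tipin and Ccne2 were unbound in the optimal list and in the mm9 list.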

How the data were processed

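ELF1 ChIP-seq of 2 replicates of 1 cell line was available as peak lists. Per the deposited README text, each relaxed list of 300000 entries came from mm10 alignments and a control, and the optimal (29086 peaks) and conservative (27399) lists came from the relaxed lists through the irreproducible discovery rate; the mm9 list (18804) came from both replicates' mm9 alignments. For the aligner and caller, the names were not given in the sources used here. The signal (column 7) was used as deposited, to rank and describe peaks within a list. Read depth is unknown from these lists.

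Summits (column 2 plus column 10) were compared with RefSeq starts of GRCm38.p6. Of 21887 protein-coding genes, 17492 took their strand from the RefSeq promoter table and 4044 from GENCODE M1 by name, and 351 had none. The strongest summit within 1 kb was used. GENCODE M1 and the NCBIM37 genome served only the mm9 list. Sequences are from RefSeq (GRCm38.p6). Coordinates are 1-based. Calls were tested on simulated peaks. Python 3.11.15 and scipy 1.17.1 were used.

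The genes, groups and words were chosen with earlier results of these data known. The named genes were all 44 members, the strongest 5 and the weakest of each group in most detail, every member whose status differs between lists, and of the wider list the 4 strongest and the unbound. The printed sequences, the use of all RefSeq starts and the promoter nearest the summit were added after the data were seen. There was no test between samples, since there was 1 group.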

Additional observations from a re-analysis of the deposited data

How the results depend on the processing

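Of 115 recomputed values, 108 stayed within 1.5 times the count or within the interval of the median. Many are counts at or near the size of their group, which could not rise 1.5 times, and the lists overlap. The number 108 therefore says little about stability. The 39 bound genes became 38 in the stronger 50% of optimal peaks, 37 at 500 bp, 41 at 2 kb and 40 with the list of either replicate alone. The maturation group went from 1 to 2 bound genes with the mm9 list, at 2 kb and with all RefSeq starts. The median signal percentile was 87.7 in the optimal list, 81.6 in the mm9 list, and 85.0 to 88.7 with 1 replicate alone. The 8 mm9 peaks with CCGGAAGT within 50 bp became 4 within 25 bp (9.76%), near the 9.2% of all promoter peaks. Within 50 bp, 27 held CGGAAG and 37 GGAA, the last near the 91.2% of all promoter peaks. The cause of the mm9 difference was not tested. No paired analysis was possible because there was 1 group. With no read counts, precision per peak is unknown, and weak peaks such as that at Pole pass or fail with the list used.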
